A study of Mus musculus with 2 samples.

Results

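The 33 genes described here encode enzymes that build cholesterol or fatty acids, the regulators that set their transcription, and a carrier that moves sterol inside the cell. They were chosen by name, and every probe set annotated to exactly 1 gene symbol among the 33 was taken. On these arrays each transcript is read by 1 or more probe sets, each made of several short oligonucleotides. The members fell into 17 sterol enzymes, 5 regulators of the sterol response, 10 fatty acid enzymes and 1 sterol carrier, out of 18193 genes that the arrays read by such probe sets. All 33 had a probe set and all 33 were measured, which means that a probe set was above a signal floor of 85.1 in at least 1 array. Among all genes, 12269 were measured.

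The cells were primary osteoblasts, the bone-forming cells, grown from the skull vaults of newborn mice. Slc39a13-KO mice carry a germline deletion in the gene for ZIP13, which transports zinc, made with a Neo cassette in place of exons that encode the motif conserved in the SLC39/ZIP family. The comparison asked how expression differed between 1 culture of Slc39a13-KO osteoblasts and 1 culture of wild-type osteoblasts, each read on 1 Affymetrix array and neither given any treatment named in the labels. How many pups gave each culture, and of which sex, the sources used here do not say. With 1 array per genotype no difference below has a replicate check and none was tested, and in such bulk samples fewer cells of a type and less RNA per cell cannot be told apart. Each value is a MAS5 signal intensity on a linear scale, and each log2 ratio is Slc39a13-KO over wild-type. A gene with several measured probe sets takes their mean log2 ratio, and its signals are likewise means on the log scale. Signals are compared between genotypes and never between genes, because probes differ in brightness.

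Cells make cholesterol and fatty acids from acetyl-CoA. Cholesterol is built through mevalonate, isoprenoid units, squalene and lanosterol, whereas fatty acid synthase makes saturated chains that elongases lengthen and desaturases give double bonds. Both routes are under the SREBP transcription factors, which sit in the endoplasmic reticulum with their escort SCAP, are held there by INSIG proteins when sterols are plentiful, and are cut free in the Golgi when sterols run low. SREBP-2 is known mainly for the sterol genes and SREBP-1c for the fatty acid genes. Osteoblasts need both products for their membranes and for secretion of bone matrix.

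The Slc39a13 probe set read 90.4 in the Slc39a13-KO array and 1309 in the wild-type array, 14.5-fold lower and close to the floor. Where this probe set lies relative to the deleted exons was not established. The median log2 ratio of all measured genes was 0.11, and the 24 poly-A control probe sets, which read RNA spiked in during labelling, were all lower in the Slc39a13-KO array with a median of −1.02. These values cannot show a difference in total mRNA per cell. Both arrays had been scaled to the same mean, and the sources used here do not say how much control RNA was added per cell. Of the 10 osteoblast markers 6 were measured. Bglap, Spp1 and Runx2 had no probe set with exactly 1 gene symbol and so were not read. Col1a1 averaged 7655 in Slc39a13-KO cells and 12230 in wild-type cells, Col1a2 25943 and 28504, and Sparc 49640 and 40038, in the same order. The 2 Col1a1 probe sets disagreed, with 28006 in Slc39a13-KO cells and 27133 in wild-type cells on 1 and 2093 and 5512 on the other. The measured probe sets of Col1a2 had both signs (log2 ratios of −0.36 and 0.08). None of these 3 genes was called. Alpl and Dmp1 were at least 2.32-fold and at least 4.50-fold higher in Slc39a13-KO cells, with wild-type signals at the floor. Sp7 was not called, and Ibsp was below the floor in both arrays. The arrays also differed in markers of other cells. All 9 measured chondrocyte markers were called higher, with summed signals of 145983 in Slc39a13-KO cells and 7150 in wild-type cells. Of 10 macrophage markers 7 were called higher (sums of 4229 and 1119). Of 10 smooth muscle markers 7 were called lower and 1 higher (sums of 17783 and 45919). The brightest genes weigh most in such sums. In Slc39a13-KO cells these were Cnmd (52990) and Col2a1 (47019) among the chondrocyte markers and Lyz2 (2146) among the macrophage markers. In all these sums signals below the floor count as 85.1. The wild-type sums of the first 2 lists and the Slc39a13-KO sum of the third are therefore upper bounds.

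Most sterol enzymes lay close to their wild-type signals, with 15 of 17 within 1.5-fold and a median log2 ratio of −0.05. Of the 10 fatty acid enzymes 2 were called higher in Slc39a13-KO cells and 5 lay within 1.5-fold, with a median of 0.48, and the difference between the groups was not tested. Scaling to the poly-A controls instead moved the median of all genes to 0.94 and that of the sterol enzymes to 0.97, so the directions given here hold for the deposited scaling. A gene was called if its mean log2 ratio was at least 2-fold and its measured probe sets agreed in sign. By this rule 2 of 33 members were called higher, the fatty acid enzymes Elovl6 and Scd2, 0 were called lower and 31 were not called. Among all measured genes 8.01% were called higher and 5.93% lower, so the members' shares were near the background or below it. The median log2 ratio over the 33 members was 0.25, against 0.11 for all measured genes. Of the members 22 were above 0 and 11 below, a share of 66.7% against 58.3% of all measured genes, and 24 of 33 (72.7%) lay within 1.5-fold of the wild-type signal, against 67.7% of all measured genes. At the level of probe sets, 0 of the 63 measured ones were at least 2-fold lower, a share not counted over all probe sets. At least 2-fold higher were 7 of the 63 (11.1%), against a background of 9.41%. Those 7 came from 4 genes, Hmgcs1, Scd2, Elovl6 and Stard4.

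**Figure D1:**
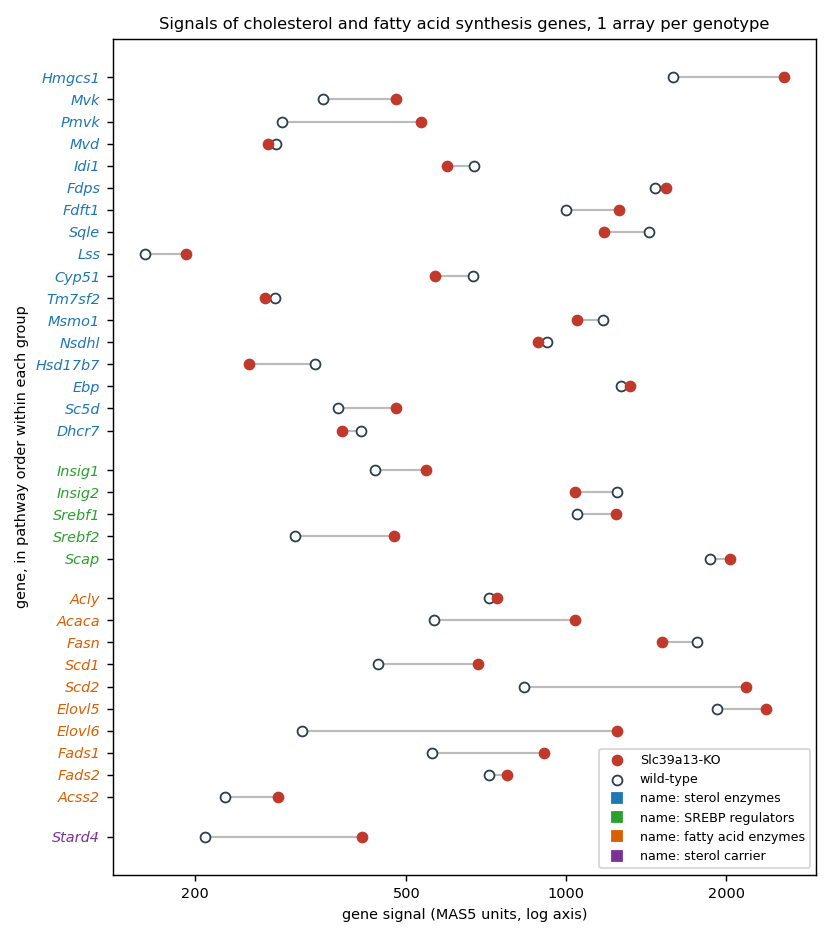
Gene signal in MAS5 units on a log axis for the 33 members in pathway order, with the Slc39a13-KO array as filled circles and the wild-type array as open circles, 1 array each. Most pairs of circles lie close together, and the longest gaps belong to Elovl6 (1246 in Slc39a13-KO cells and 319 in wild-type cells) and Scd2 (2179 and 831, in the same order).

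Different probe sets of the same gene on the same arrays give the only, technical, measure of error. Over all genes with several probe sets, the SD of their log2 ratios was 0.34 at the median and 0.75 at the 90th percentile. Of the 33 members 13 were read by 1 measured probe set and carry no such error, 20 were read by several, and in 6 of those 20 the probe sets had both signs. A further 14 of the members' 77 probe sets were below the floor in both arrays.

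The early sterol enzymes, which carry acetyl units through mevalonate to squalene, had a median log2 ratio of 0.33 over 7 genes. Hmgcs1 makes HMG-CoA, the precursor of mevalonate. Its 4 measured probe sets disagreed, with signals of 2871 in Slc39a13-KO cells and 2852 in wild-type cells for a probe set shared by transcript variants, 3932 and 1819 for the next, 3912 and 2727 for a probe set with possible cross-hybridisation, and 997 and 449.9 for the last. The mean was 1.62-fold higher (log2 ratio 0.70, SD 0.54 over 4 probe sets), with no probe set lower in Slc39a13-KO cells. Pmvk, which adds the phosphate that completes mevalonate diphosphate, read 533 in Slc39a13-KO cells and 292 in wild-type cells on its only measured probe set, 1.83-fold higher. Mvk, the kinase just before it, read 478 and 348 in the same order, 1.37-fold higher, with log2 ratios of 0.39 and 0.53 on its 2 probe sets. These 3 genes lie early in the pathway and were the sterol enzymes with the highest log2 ratios, all short of 2-fold.

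The remaining early enzymes lay nearer to 0. Mvd, which makes isopentenyl diphosphate, read 275 in Slc39a13-KO cells and 284 in wild-type cells, and Fdps, the farnesyl diphosphate synthase, read 1539 and 1467. Fdft1, squalene synthase and the first enzyme committed to sterols, had 1 probe set with signals of 1379 in Slc39a13-KO cells and 1351 in wild-type cells and another with 1146 and 737, a mean log2 ratio of 0.33. Idi1 interconverts the isoprenoid units. Its 2 probe sets pointed in opposite directions, with 382 in Slc39a13-KO cells and 619 in wild-type cells on the first and 934 and 724 on the second, so its mean log2 ratio of −0.16 (SD 0.75) gives no direction. The first is a probe set shared by transcript variants, and the second alone gave a log2 ratio of 0.37.

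All 10 late sterol enzymes, from squalene to cholesterol, lay within 1.5-fold of the wild-type signal, with a median log2 ratio of −0.09. Sqle, the squalene epoxidase that is a control point of the pathway, read 1178 in Slc39a13-KO cells and 1434 in wild-type cells. Cyp51, the lanosterol demethylase, read 567 and 669, and Msmo1, the methylsterol monooxygenase that acts later, 1049.6 and 1175. By the mean of its probe sets, the largest difference in this direction was that of Hsd17b7, a sterol ketone reductase. It read 253 in Slc39a13-KO cells and 336 in wild-type cells, 1.33-fold lower, with all 3 measured probe sets lower (log2 ratios of −0.28, −0.24 and −0.71). The last of these is a probe set with possible cross-hybridisation. Without it the log2 ratio of Hsd17b7 was −0.26, against −0.28 for Sqle, so the rank rests on that probe set. Nsdhl, its partner in demethylation, read 883 in Slc39a13-KO cells and 919 in wild-type cells. Tm7sf2, the reductase that follows Cyp51, read 270.4 and 283, Ebp, the sterol isomerase, 1320.2 and 1266, and Dhcr7, which makes the last double-bond reduction to cholesterol, 378 and 410.1. Lss, which closes squalene epoxide into lanosterol, and Sc5d, a late desaturase, were above 0 on average but not on every probe set. The 2 measured probe sets of Lss read 229.5 and 162 in Slc39a13-KO cells and 279.9 and 92.4 in wild-type cells, and the 3 of Sc5d had log2 ratios of 0.86, −0.08 and 0.30. The first Lss probe set may read several transcripts, and the second alone gave a log2 ratio of 0.81. Over all 17 sterol enzymes 8 were above 0 and 9 below, the median was −0.05, and 15 (88.2%) lay within 1.5-fold.

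**Figure D2:**
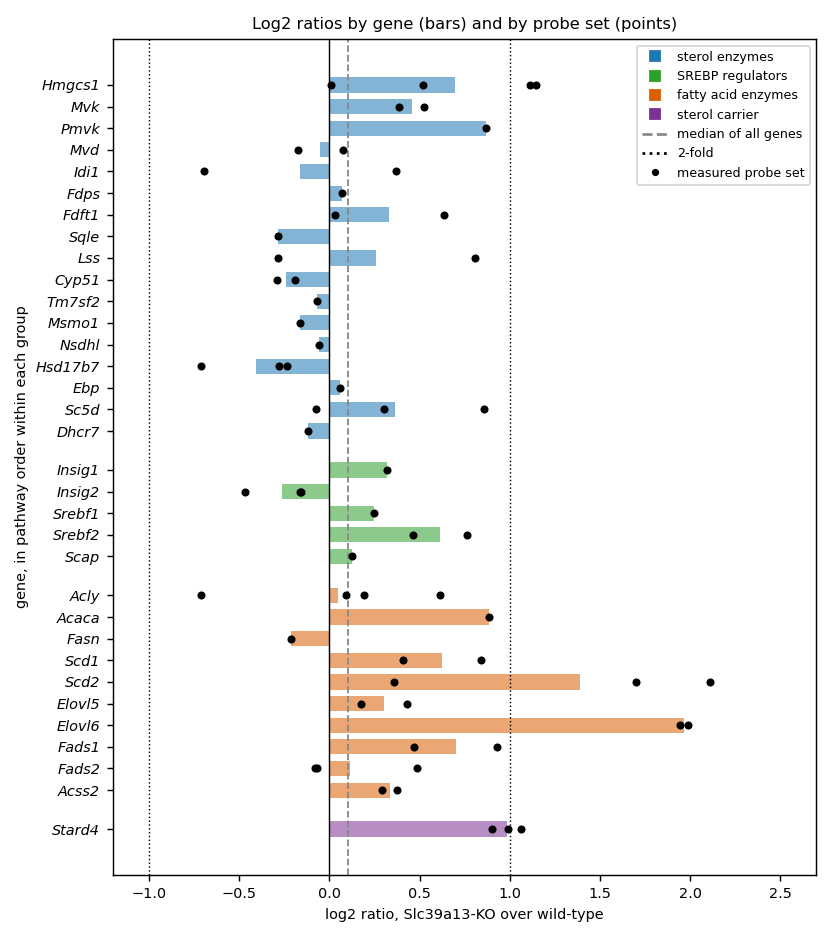
Log2 ratio of Slc39a13-KO over wild-type for each member, with bars for the gene means, points for single measured probe sets, a dashed line at the median of all measured genes and dotted lines at 2-fold. With the deposited scaling the sterol bars lie on both sides of 0, those of the fatty acid enzymes lie above it except for Fasn, and the points of Hmgcs1, Idi1, Lss, Acly and Scd2 are widely spread.

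Among the regulators Srebf2, which encodes SREBP-2, had the highest log2 ratio. It read 473 in Slc39a13-KO cells and 309 in wild-type cells, 1.53-fold higher, with 361 and 213 on 1 probe set and 619 and 449 on the other. Srebf1, which encodes the SREBP-1 isoforms, read 1241 in Slc39a13-KO cells and 1046 in wild-type cells on its only measured probe set, and whether that tells the isoforms apart was not examined. Scap, the escort, read 2034 and 1863 (log2 ratio 0.13), but its log2 ratio was −0.12 with the arrays scaled to a common median and −0.37 without a floor. The retention proteins lay on opposite sides of 0. Insig1, itself an SREBP target, read 545 in Slc39a13-KO cells and 436 in wild-type cells, and Insig2 read 1039 and 1245 with all 3 of its probe sets lower. Their log2 ratios differed by 0.58, and those of Srebf2 and Srebf1 by 0.37. None of the 5 was called.

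Elovl6 had the largest difference of all members. Its product lengthens palmitate to stearate. The 2 measured probe sets read 1003 and 1548 in Slc39a13-KO cells, against 253 and 402 in wild-type cells, and both were near 4-fold higher, with log2 ratios of 1.99 and 1.95. The mean was 3.91-fold higher (log2 ratio 1.97, SD 0.03 over 2 probe sets), and 98.2% of all measured genes had a lower log2 ratio. A further, dim Elovl6 probe set read 64 in Slc39a13-KO cells and 64.6 in wild-type cells, both under the floor, and gave no ratio. With the floor lowered to the 30th percentile or removed this probe set entered with the other sign, the log2 ratio was 1.31 and Elovl6 was not called. Elovl5, which lengthens polyunsaturated chains, read 2374 and 1924 in the same order, 1.23-fold higher, a log2 ratio 1.66 below that of Elovl6.

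Stearoyl-CoA desaturases put the first double bond into saturated chains. Scd2 was 2.62-fold higher (log2 ratio 1.39), above 96.0% of all measured genes, but its 3 probe sets were far apart (SD 0.92). They read 8489, 2242 and 543 in Slc39a13-KO cells, against 6611, 691 and 126 in wild-type cells, differences of 1.28-fold, 3.25-fold and 4.32-fold. All 3 were higher in Slc39a13-KO cells, and the brightest had the smallest difference, so the size of the Scd2 difference depends on the probe set. By the brightest probe set alone its log2 ratio was 0.36, short of a call, and with the floor raised to the 70th percentile its log2 ratio was 0.94, again not called. Scd1 read 1915 and 244 in Slc39a13-KO cells and 1067 and 183 in wild-type cells on its 2 probe sets, 1.54-fold higher on average. Scd1 and Scd2 are closely related paralogs and lie within 3 coding genes of each other on chromosome 19, as do Fads1 and Fads2. Whether probes of one paralog also read the other was not tested.

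Fads1 and Fads2 desaturate polyunsaturated fatty acids. Fads1 read 3577 and 231 in Slc39a13-KO cells, against 2582 and 121 in wild-type cells, 1.63-fold higher on average. Fads2 lay close to the wild-type signal on 2 probe sets (1191 and 348 in Slc39a13-KO cells, 1249.6 and 367 in wild-type cells), with 1115 in Slc39a13-KO cells and 796 in wild-type cells on the third. All 6 desaturases and elongases among the members had a mean log2 ratio above 0, with a median of 0.66, except that Fads2 was at −0.13 with the arrays scaled to a common median and at −0.07 by its brightest probe set or the median of its 3. Of the 6, 2 were called, Elovl6 and Scd2, against 8.01% of all measured genes called higher. Above 0 were 58.3% of all measured genes.

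The enzymes that supply acetyl-CoA and assemble the chain had a median of 0.19 over 4 genes, and none was called. Acaca, acetyl-CoA carboxylase, which makes malonyl-CoA in the rate-limiting step of fatty acid synthesis, read 1038 in Slc39a13-KO cells and 563 in wild-type cells, 1.84-fold higher on its only measured probe set. Fasn, the synthase that uses malonyl-CoA, read 1518 and 1760.2, 1.16-fold lower, and the log2 ratios of the 2 differed by 1.10. Acss2, which makes acetyl-CoA from acetate, read 287 in Slc39a13-KO cells and 228 in wild-type cells (log2 ratio 0.34), but without a floor, where a probe set below it entered, the log2 ratio was −0.32. Acly makes acetyl-CoA from citrate, and its bright probe sets disagreed. They read 616, 1948 and 2750.3 in Slc39a13-KO cells and 402, 3193 and 2404 in wild-type cells. A dim one read 90.7 in Slc39a13-KO cells and 47.2, below the floor, in wild-type cells, and the mean log2 ratio of 0.05 gives no direction. The second bright probe set, the only lower one, and the dim one are probe sets with possible cross-hybridisation. Without them the log2 ratio of Acly was 0.40. Over all 10 fatty acid enzymes 9 were above 0 and 1 below, the median log2 ratio was 0.48, and 5 of 10 lay within 1.5-fold.

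Stard4, which encodes a soluble protein that carries cholesterol between membranes, lay just outside the threshold. Its 3 probe sets read 279, 604 and 418 in Slc39a13-KO cells, against 149, 304 and 200.1 in wild-type cells, and the mean was 1.98-fold higher (log2 ratio 0.98, SD 0.08 over 3 probe sets). Its log2 ratio was above those of 91.7% of all measured genes. The member nearest to the threshold on its inner side was Scd2.

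**Figure D3:**
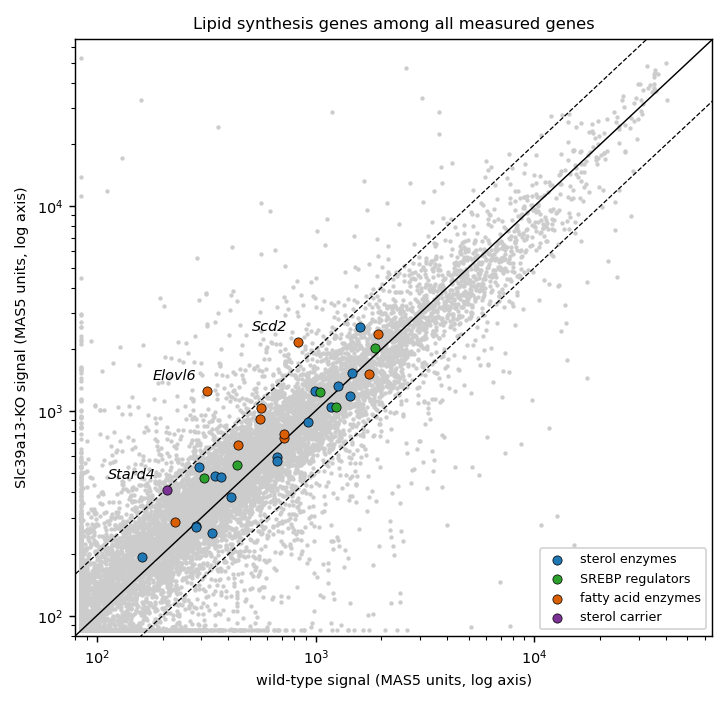
Signal in Slc39a13-KO cells (vertical) against signal in wild-type cells (horizontal) for all 12269 measured genes in grey and the 33 members in colour, in MAS5 units on log axes, with a solid line at equality and dashed lines at 2-fold. Elovl6 and Scd2 lie above the upper dashed line, Stard4 lies on it, and no member lies below the lower one.

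Adipocytes are rich in Elovl6 and stearoyl-CoA desaturases, so the adipocyte markers are given beside these genes. Of 10 adipocyte markers 5 were measured and 3 were called higher, with summed signals over the measured ones of 3026 in Slc39a13-KO cells and 933 in wild-type cells. The wild-type sum takes Pparg and Fabp4 at the floor and is an upper bound. Pparg, the master regulator of fat cells, read 869 in Slc39a13-KO cells and 59.0, below the floor, in wild-type cells, at least 10.2-fold higher. Fabp4, a fatty acid carrier, was at least 6.29-fold higher on the 2 measured of its 4 probe sets. Plin4, a lipid droplet protein, read 1137 in Slc39a13-KO cells and 182 in wild-type cells. Lpl and Cebpa were not called, and both were below 0 (log2 ratios of −0.39 and −0.20). The defining markers of mature fat cells Adipoq, Cidec, Lep and Retn were below the floor in both arrays, and Plin1 had no probe set with exactly 1 gene symbol. The part of adipocyte-like, chondrocyte or other cells in the differences of Elovl6 and Scd2 was not tested.

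The promoters of the members were read to see what the genes share. SREBPs are known to act at sterol regulatory elements together with the factors NF-Y and Sp1. The reference held promoter windows, from 250 bases before to 50 bases after the gene start, for 26 of the 33 members (RefSeq, build GRCm38.p6). Fdps, Fdft1, Sqle, Scd1, Scd2, Fads1 and Stard4 had none. The windows below are shown for the following reasons. Among the 26, Hmgcs1 was the only member with the sterol element letters searched. Srebf2 was the regulator with the highest log2 ratio, and Elovl6 was the member with the largest difference. These windows lie on the plus strand at chr13:119690101-119690400 for Hmgcs1, chr15:82147019-82147318 for Srebf2 and chr3:129532136-129532435 for Elovl6. Capitals mark matches to 4 motifs on either strand. The sterol regulatory element searched was TCACNCCAC. The box of NF-Y was CCAAT, which appears as its reverse complement where it lies on the minus strand. The box of Sp1 was GGGCGG, with the same rule. The E-box was CACGTG.
Hmgcs1: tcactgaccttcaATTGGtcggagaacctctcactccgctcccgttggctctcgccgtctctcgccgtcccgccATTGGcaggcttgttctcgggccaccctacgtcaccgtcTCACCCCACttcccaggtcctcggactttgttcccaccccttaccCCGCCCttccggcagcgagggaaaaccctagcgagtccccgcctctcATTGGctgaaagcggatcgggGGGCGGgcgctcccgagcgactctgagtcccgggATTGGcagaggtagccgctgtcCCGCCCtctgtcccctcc
Srebf2: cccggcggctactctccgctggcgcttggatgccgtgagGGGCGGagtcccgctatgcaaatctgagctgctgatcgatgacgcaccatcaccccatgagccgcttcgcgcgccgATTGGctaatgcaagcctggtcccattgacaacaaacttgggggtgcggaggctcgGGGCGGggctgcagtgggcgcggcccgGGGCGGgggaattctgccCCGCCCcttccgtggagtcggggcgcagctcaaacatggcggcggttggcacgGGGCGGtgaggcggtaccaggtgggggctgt
Elovl6: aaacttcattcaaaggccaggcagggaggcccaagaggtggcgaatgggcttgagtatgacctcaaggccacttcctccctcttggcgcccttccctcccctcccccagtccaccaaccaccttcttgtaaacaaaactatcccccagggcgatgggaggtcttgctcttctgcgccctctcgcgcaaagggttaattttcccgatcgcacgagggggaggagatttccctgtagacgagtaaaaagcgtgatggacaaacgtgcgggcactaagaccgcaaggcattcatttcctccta

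The Hmgcs1 window held TCACCCCAC at −137 to −129 from the gene start, with 4 NF-Y boxes and 3 Sp1 boxes. The Srebf2 window held 1 NF-Y box and 5 Sp1 boxes, and the Elovl6 window held none of the 4 motifs, nor did that of Acaca. The NF-Y box was in the windows of 14 of 14 sterol enzymes, 4 of 5 regulators and 4 of 7 fatty acid enzymes, against 42.7% of the 9924 measured genes with a window. The Sp1 box was in 13 of 14, 5 of 5 and 3 of 7 in the same order, against 68.2% of measured genes. The E-box was in 6 of 26 members (23.1%), among them Insig1, Dhcr7 and Elovl5, against 11.5%. The sterol element was in 1 of 26 members (3.85%), against 1.38%, and its form TCACCCCAC preceded by A in 0 of 26. Over all 32851 windows of the reference the shares were 37.4% for the NF-Y box, 35.7% for the Sp1 box, 7.15% for the E-box and 1.24% for the sterol element. Genes with several windows, 5 of these members among them, had more sequence in which to match. A match describes letters only, not a site in use. Sites that differ from the letters searched were not counted, so a window without a match may still hold one.

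**Figure D4:**
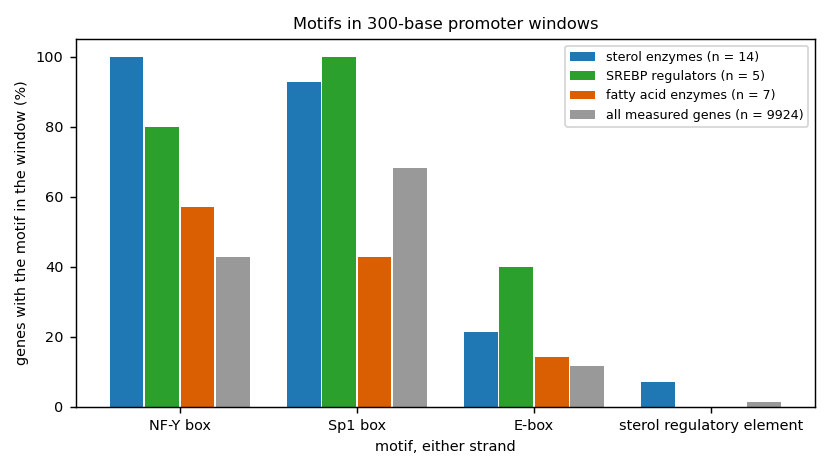
Share of genes, in percent, whose 300-base promoter window holds each motif on either strand, for 14 sterol enzymes, 5 regulators, 7 fatty acid enzymes and 9924 measured genes. The NF-Y bars are at 100% for the sterol enzymes, 57.1% for the fatty acid enzymes and 42.7% for all measured genes.

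Other genes of the same pathways, taken from lists of names, were also mostly not called. Of 14 further sterol and isoprenoid genes 9 had a probe set with 1 gene symbol, and all 9 were measured. Their median log2 ratio was 0.30, with 1 called higher and 0 lower, against 8.01% and 5.93% of all measured genes. The called gene was Mbtps1, the site-1 protease that makes the first cut in SREBPs, with 5648 and 707 in Slc39a13-KO cells, against 3072 and 114 in wild-type cells, on its 2 measured probe sets. The brighter was 1.84-fold and the dimmer 6.20-fold higher, so the mean of 3.38-fold rests on the dimmer probe set. Mbtps2, the site-2 protease, read 1426 and 976 in the same order and was not called.

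Of 23 further fatty acid genes 21 had a probe set with 1 gene symbol and 17 were measured, with a median of −0.15. Against 8.01% of all measured genes called higher and 5.93% lower, the only call was Elovl7, at least 2.36-fold higher. This elongase read 417, 251 and 93.1 in Slc39a13-KO cells, against 103, 64.5 and 42.1 in wild-type cells, with wild-type signals of the last 2 below the floor. Elovl1, which makes very long saturated chains, read 1106 in Slc39a13-KO cells and 1851 in wild-type cells and was below 0 on all 4 probe sets. Me1, the malic enzyme that supplies NADPH, read 2109 and 2951. Neither was called.

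Of 15 genes of sterol uptake, storage and efflux 14 had a probe set with 1 gene symbol, and all 14 were measured. Their median was 0.13, with 2 called higher and 0 lower, against 8.01% and 5.93% of all measured genes. Apoe, which carries lipid out of cells and is abundant in macrophages, read 2153 in Slc39a13-KO cells and 635 in wild-type cells, 3.39-fold higher. Mylip, the ligase that degrades the lipoprotein receptors, read 1759 and 749.9, 2.35-fold higher. Each was read by 1 probe set. Lipa, the lysosomal lipase that frees cholesterol from its esters, read 497 in Slc39a13-KO cells and 890 in wild-type cells (log2 ratio −0.84), with all 3 probe sets lower, and was not called. The part of the macrophage markers, called higher in 7 of 10, in the Apoe difference was not tested.

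**Figure D5:**
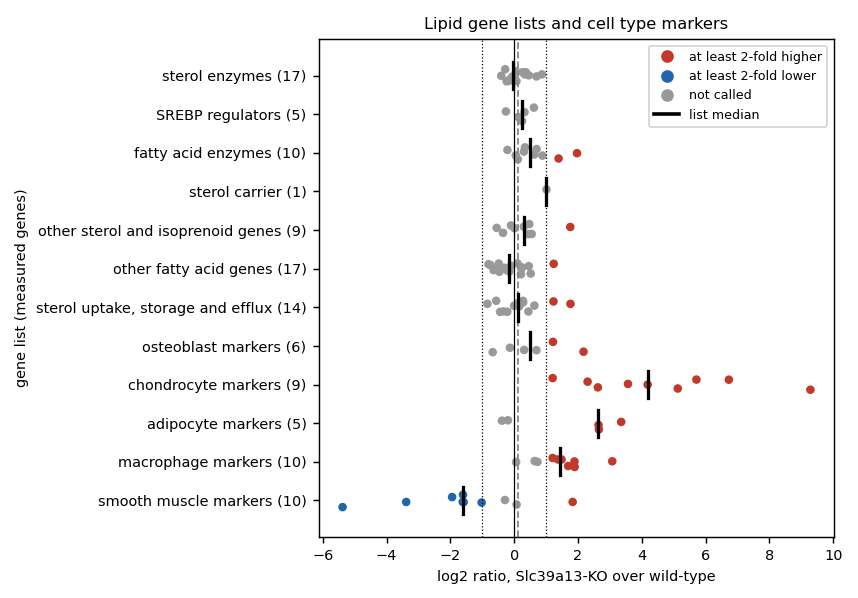
Log2 ratio of Slc39a13-KO over wild-type for each measured gene of the lists, with black bars at list medians, the dashed line at the median of all measured genes and dotted lines at 2-fold. The lipid lists crowd around 0 with a few called genes, whereas the chondrocyte markers have a median of 4.18 and the smooth muscle markers a median of −1.60.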

How the data were processed

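RNA of 1 Slc39a13-KO and 1 wild-type osteoblast culture was read on Affymetrix mouse arrays. The deposited values are linear signal intensities that the authors computed with MAS5, per the submitters' processing notes (of unstated version). The study's methods name gcRMA for its own analysis, but the deposited values are linear and each array has a 2% trimmed mean of 500.003, the mark of MAS5 scaling. Detection calls were not used here. The number of arrays limits the precision.

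Gene symbols came from the platform annotation, and probe sets with several symbols or none were left out. Signals were scaled to a common 2% trimmed mean and raised to a floor of 85.1, the 50th percentile over both arrays, below which ratios are bounds. Members and lists were chosen with earlier results of these data known. All members are named, with Slc39a13 and called genes of the other lists. Further genes of those lists that were not called or not measured were chosen after their values were seen. The 2-fold threshold is the study's. In all 12 alternatives were tried in scaling, floor, probe set choice and calling. Calling was tested on simulated data beforehand. Python 3.11.15, numpy 2.4.6, pandas 2.3.3, statsmodels 0.14.6 and matplotlib 3.10.9 were used.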

Additional observations from a re-analysis of the deposited data

How the results depend on the processing

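Of the 12 alternatives, the 3 other scalings that assume similar totals (common median, quantile, loess) kept the calls of Elovl6 and Scd2, but they moved the median log2 ratio of all genes to −0.11, 0 and −0.01 and the counts of all genes called higher and lower, 983 and 727 as reported, to 654 and 1050, 774 and 854, and 764 and 869. At a common median 17 members were above 0 and 16 below, and the member median was 0.00. Scaling to the poly-A controls, which were lower in the Slc39a13-KO array, moved the median of all genes to 0.94 and put 33 of 33 members above 0, with medians of 1.14 for all members, 1.34 for fatty acid enzymes and 0.97 for sterol enzymes and 21 members called higher, against 45.8% of all genes. The fatty acid median stayed 0.25 to 0.43 above that of all genes under the 10 alternatives that alter log2 ratios, whereas the sterol median lay between −0.21 and 0.03 relative to it.

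Calls moved with the floor, the probe sets and the threshold. Elovl6 alone was called with a floor at the 70th percentile (1 member, against 5.79% of all genes). It was also the only call with the brightest probe set of each gene (1 member, against 8.68%), where Scd2 had a log2 ratio of 0.36. With only probe sets that have no suffix 4 of the 30 members then measured were called (Elovl6, Hmgcs1, Scd2 and Stard4), against 8.57% of all genes, and with a threshold of 1.5-fold 9 (also Acaca, Fads1, Pmvk, Scd1 and Srebf2), against 19.4% of all genes. With a floor at the 30th percentile or none, Acaca and Scd2 were called, against 10.3% and 16.9% of all genes called higher. Elovl6 was not called in either, since its dim probe set then entered with the other sign and its log2 ratio was 1.31. No member was called lower under any of the 12, where 1.75% to 12.1% of all genes were. No paired analysis was possible because each genotype had 1 array.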
